A study of Caenorhabditis elegans with 14 samples.

Results

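The spared piRNAs are 73 worm piRNAs whose read abundance stayed near or above its control level after RNA interference against snpc-4, while most piRNAs were lower. They were chosen by the measured values themselves: a mean of at least 10 read counts over both libraries and an RPM value (the read count scaled to library size) in the snpc-4 RNAi library of at least 0.8 times that in the control library. The choice left out the 10 most abundant piRNAs, the loci of 6 clones (Y105C5A, Y105C5B, Y73F8A, Y57G11A, Y57G11B and Y57G11C) and 4 single loci. Of 15366 listed piRNAs, 560 reached the minimum, 218 of these were left out, and 342 remained eligible. The 73 spared piRNAs are 21.3% of the eligible ones. Because the ratio between the libraries chose them, their ratios are given as a description with no test, and their common direction is no finding.

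piRNAs are small RNAs of the germline that guide Argonaute proteins to foreign or unwanted transcripts. In Caenorhabditis elegans they are called 21U-RNAs, because they begin with uridine, and the Argonaute that binds them is PRG-1. Each is made from its own tiny RNA polymerase II transcript, and most of these genes are gathered in a left and a right domain of chromosome IV, with a short conserved motif upstream of most of them. The factor SNPC-4 (GEI-11 in older work) is the worm relative of the largest SNAP complex subunit, in a complex known for starting transcription of small nuclear RNA genes.

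Both libraries come from whole young adults of the wild-type strain N2, fed bacteria from larval stages on until collection. The control animals ate bacteria with the empty vector L4440 and the treated animals ate bacteria making double-stranded RNA of snpc-4; the labels give no transgene or mutation, and the sources used here do not say how many animals were collected. There is 1 library per group, so no p-value is given, and every statement compares 2 libraries, not 2 conditions. Intervals are exact 95% intervals. Intervals of ratios cover counting error only, and since reads were not marked by molecule before PCR they can be too narrow. Intervals of shares treat loci as sampled units and say nothing about variation among animals.

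The libraries are scaled to 20413480 reads (control) and 20875010 reads (snpc-4), so 1 read is worth 0.0490 and 0.0479 RPM. The piRNA total, the germline product in these tables, had a ratio of 0.484 (0.478 to 0.491). The mir-35 family, microRNAs of oocytes and embryos, summed to 54 control and 16 snpc-4 counts over its 8 members, between 0 and 15 counts each in the control library and 0 and 6 in the other, with mir-41 at 0 in both. mir-1 of muscle and mir-60 of the intestine had ratios of 1.31 (1.30 to 1.32) and 1.21 (1.17 to 1.25), while mir-124 and lsy-6 of neurons were at 0 in both. In whole animals, fewer germ cells and less RNA per cell cannot be told apart, and the part of tissue composition in the piRNA values was not tested.

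Summed over the 73, the spared piRNAs had 2347 control and 2599 snpc-4 counts, or 115 and 125 RPM. That is a ratio of 1.08 (1.02 to 1.15). For the other 269 eligible piRNAs the sums were 18757 and 7414, which gives a ratio of 0.387 (0.376 to 0.397). The spared piRNAs thus went from 2347 of 21104 eligible counts in the control library to 2599 of 10013 after snpc-4 RNAi. Single spared piRNAs had ratios from 0.80 to 4.16 with a median of 1.07, beside a median of 0.464 over all 342 eligible piRNAs. Counts were higher in the snpc-4 library for 42 of the 73, lower for 25 and equal for 6. For reference, the totals of microRNAs and tRNAs had ratios of 1.15 (1.15 to 1.15) and 1.08 (1.07 to 1.09). The snoRNA total had 0.910 (0.889 to 0.931). That of the snRNA class, which SNAP complexes are known to serve, had 1.64 (1.58 to 1.70). The median over the 118 snRNA entries was lower in the snpc-4 library, 8.5 control and 6.0 snpc-4 counts. The snRNA total thus does not describe the typical entry.

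**Figure D1:**
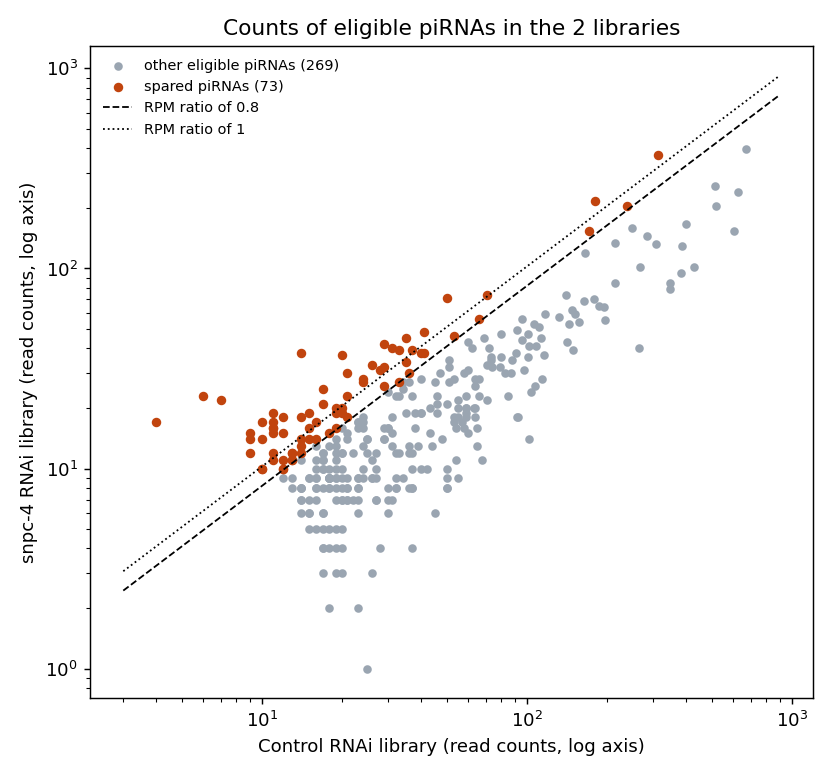
Read counts of the 342 eligible piRNAs in the control library (horizontal, log axis) and in the snpc-4 library (vertical, log axis), 1 point per piRNA, with the 73 spared piRNAs in orange and the other 269 in grey. The dashed line is the RPM ratio of 0.8 that separates them by construction; most orange points lie under 50 counts, and 4 lie above 150 in both libraries.

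The most abundant spared piRNA was 21ur-15698 (T27E7.68), with 312 control and 371 snpc-4 counts, a ratio of 1.16 (0.998 to 1.36). 21ur-2004 (Y41E3.160) had 239 and 205 counts, a ratio of 0.839 (0.693 to 1.02). 21ur-12276 (Y67A10A.170) had 181 and 218 counts, a ratio of 1.18 (0.963 to 1.44). Of these 3, the first and the third were higher in the snpc-4 library and the second lower, each by an amount that the counting interval spans. The next was 21ur-1051 (F52B11.36), with 172 and 153 counts and a ratio of 0.870 (0.695 to 1.09). These 4 hold 904 of the 2347 control counts. Without them the summed ratio of the other 69 was 1.12 (1.04 to 1.20). A gap follows in abundance, to 21ur-13641 (Y40H7A.237) with 71 and 74 counts, 21ur-1492 (H12I19.51) with 66 and 56, 21ur-13441 (R04B5.12) with 50 and 71 and 21ur-3387 (B0513.26) with 53 and 46. The last 4 ratios were 1.02, 0.830, 1.39 and 0.849, and the interval of each includes 1.

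By mean count, the spared piRNAs were mostly of low abundance. Their mean count had a median of 17.5 (quartiles 13.5 and 30.5), against 24.0 (14.5 and 47.0) for the other eligible piRNAs. The order depended on the library. Median counts were 17 against 34 in the control library and 19 against 14 in the snpc-4 library. Of the 153 eligible piRNAs with a mean of 10 to under 20 counts, 42 were spared, a share of 27.5% (20.6% to 35.2%). In the class from 20 to under 50 counts it was 24 of 115, or 20.9% (13.9% to 29.4%). From 50 counts on it was 7 of 74, or 9.46% (3.89% to 18.5%). The mean and the ratio come from the same counts, so these shares describe the choice and carry no test. Precision followed the counts: the upper bound of a spared piRNA's interval was a median of 5.49 times its lower bound in the lowest class, 2.94 times in the middle class and 1.57 times in the highest.

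The intervals describe the counting error of ratios that the choice had already placed at 0.8 or more, so the counts that follow are no test. The interval lay wholly above 0.387, the summed ratio of the other eligible piRNAs, for 61 of the 73. These were all 31 members with a mean of at least 20 counts and 30 of the 42 below it. The 0.387 is itself a sum over loci chosen for ratios under 0.8. Loci that were not spared could have such an interval too, as 21ur-482 did with 0.577 (0.508 to 0.654), and their share was not counted. The interval included 1 for 68 members and lay above 1 for 5, and for no member was it below 1. In the other direction, 117 of the 269 eligible piRNAs that were not spared had an interval that reaches 0.8, so the border between the sets is not sharp at this depth.

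**Figure D2:**
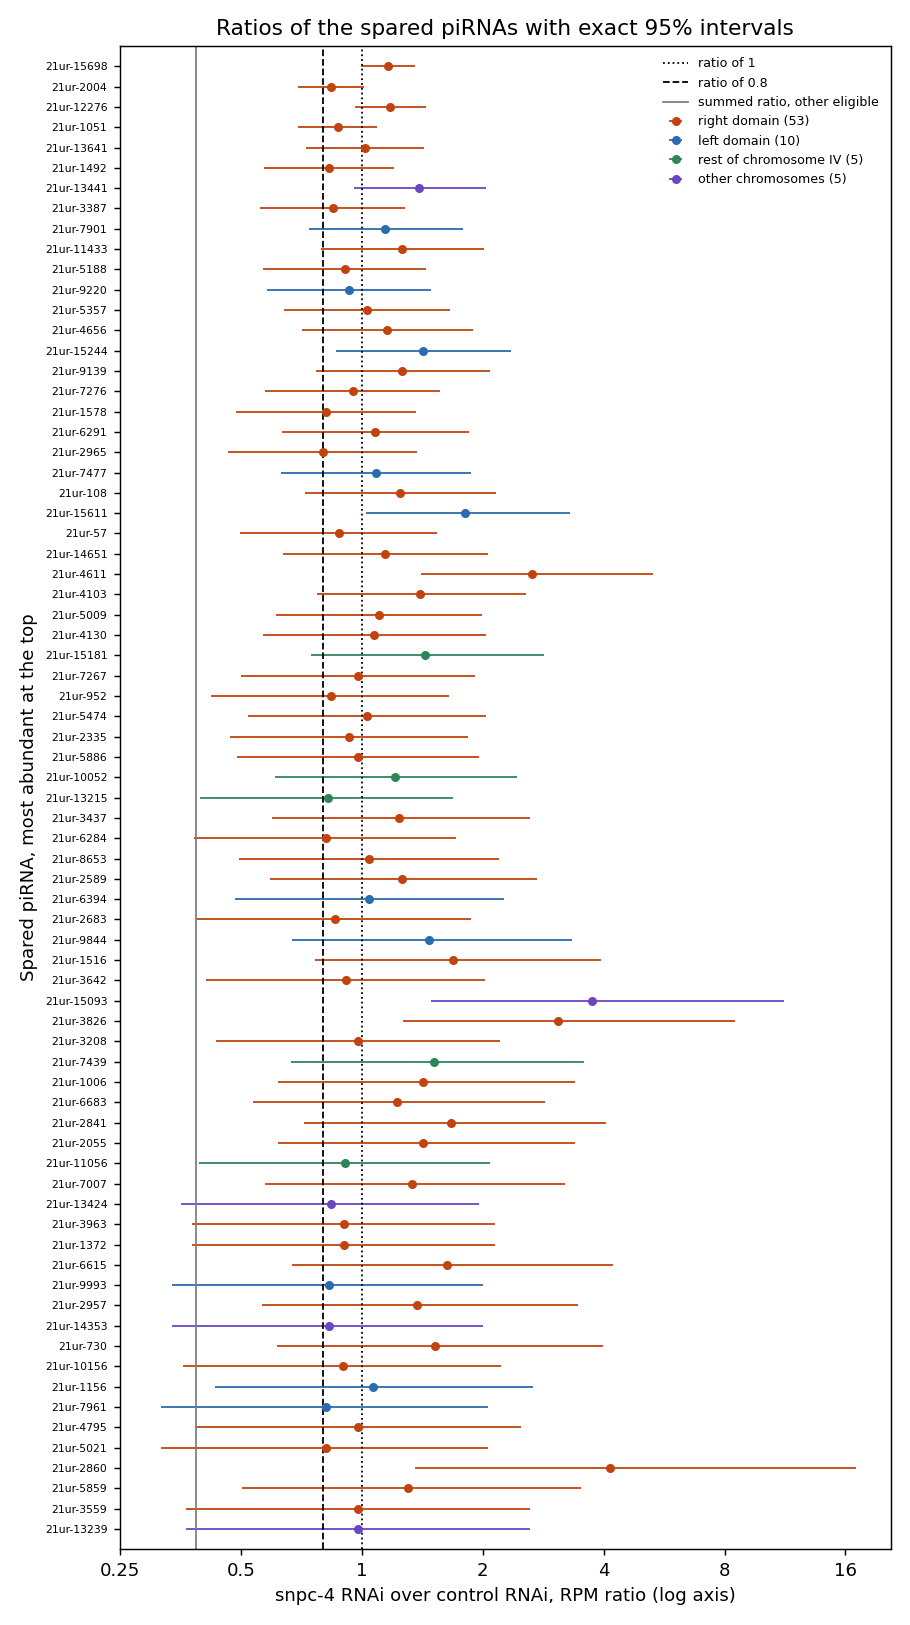
RPM ratio of snpc-4 over control RNAi (horizontal, log axis) for each of the 73 spared piRNAs, ordered by mean count with the most abundant at the top; bars are exact 95% intervals and colours give the place in the genome. Vertical lines mark 1, the limit of 0.8 and the summed ratio of 0.387 of the other eligible piRNAs; intervals widen towards the bottom, where 12 of them reach the grey line.

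The 5 members whose interval lay above 1 had few control reads. 21ur-4611 (F52B11.33) had 14 control and 38 snpc-4 counts, a ratio of 2.65 (1.41 to 5.30). 21ur-15611 (H04M03.70) had 20 and 37 counts, a ratio of 1.81 (1.02 to 3.29). 21ur-3826 (C52D10.40) had 7 and 22 counts, a ratio of 3.07 (1.27 to 8.52). All 3 had more reads in the snpc-4 library, and their lower bounds lie between 1.02 and 1.41. 21ur-15093 (F27E11.5) had 6 and 23 counts, a ratio of 3.75 (1.48 to 11.3). 21ur-2860 (Y51H4A.98) had 4 and 17 counts and so a ratio of 4.16 (1.36 to 17.0). The sixth ratio in order was 1.69 (0.764 to 3.93) for 21ur-1516 (F56F12.11), with 11 and 19 counts. These are the highest of 342 ratios, each from 1 library per group, so their intervals do not allow for their having been picked as the highest.

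At the limit itself the sets ran into each other. Just inside lay 21ur-2965 (Y116A8C.129), with 33 and 27 counts and a ratio of 0.80, followed by 21ur-1578 (36 and 30 counts), 21ur-6284 (18 and 15) and 21ur-5021 (12 and 10), all at 0.815. Just outside lay 21ur-6755 (ZK381.22), with 16 and 13 counts and a ratio of 0.795, then 21ur-898 (20 and 16) and 21ur-14494 (30 and 24) at 0.782 and 21ur-8871 (34 and 27) at 0.777. A single read more or fewer in the snpc-4 library moves each of these loci across the limit.

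Position was not part of the choice, apart from the loci left out, and the spared piRNAs came from chromosomes IV, V and X. With the domains taken as 4 to 7 Mb (left) and 13 Mb to the end (right) of chromosome IV, 53 of the 73 lay in the right domain, 10 in the left, 5 elsewhere on chromosome IV, 3 on chromosome V and 2 on chromosome X. The spared share of eligible loci was 20.5% (15.7% to 25.9%; 53 of 259) in the right domain and 15.2% (7.51% to 26.1%; 10 of 66) in the left, close to the 21.3% over all. Outside both domains it was 10 of 17, or 58.8% (32.9% to 81.6%), against 63 of 325, or 19.4% (15.2% to 24.1%), inside them. The eligible loci outside are of low abundance, with a median mean of 14.3 counts for the 10 spared, but the choice had also left out loci there. Among loci with a mean of 10 to under 20 counts alone, the shares were 8 of 13 outside, or 61.5% (31.6% to 86.1%), and 34 of 140 inside, or 24.3% (17.4% to 32.2%). From 20 counts on, 2 of only 4 eligible loci outside were spared. The alternatives that follow were added after seeing the data. With no locus left out, 13 of 21 loci outside were spared, or 61.9% (38.4% to 81.9%), against 17.6% inside. Scaled to the microRNA counts, the share outside was 35.3% (14.2% to 61.7%) against 13.8% inside.

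**Figure D3:**
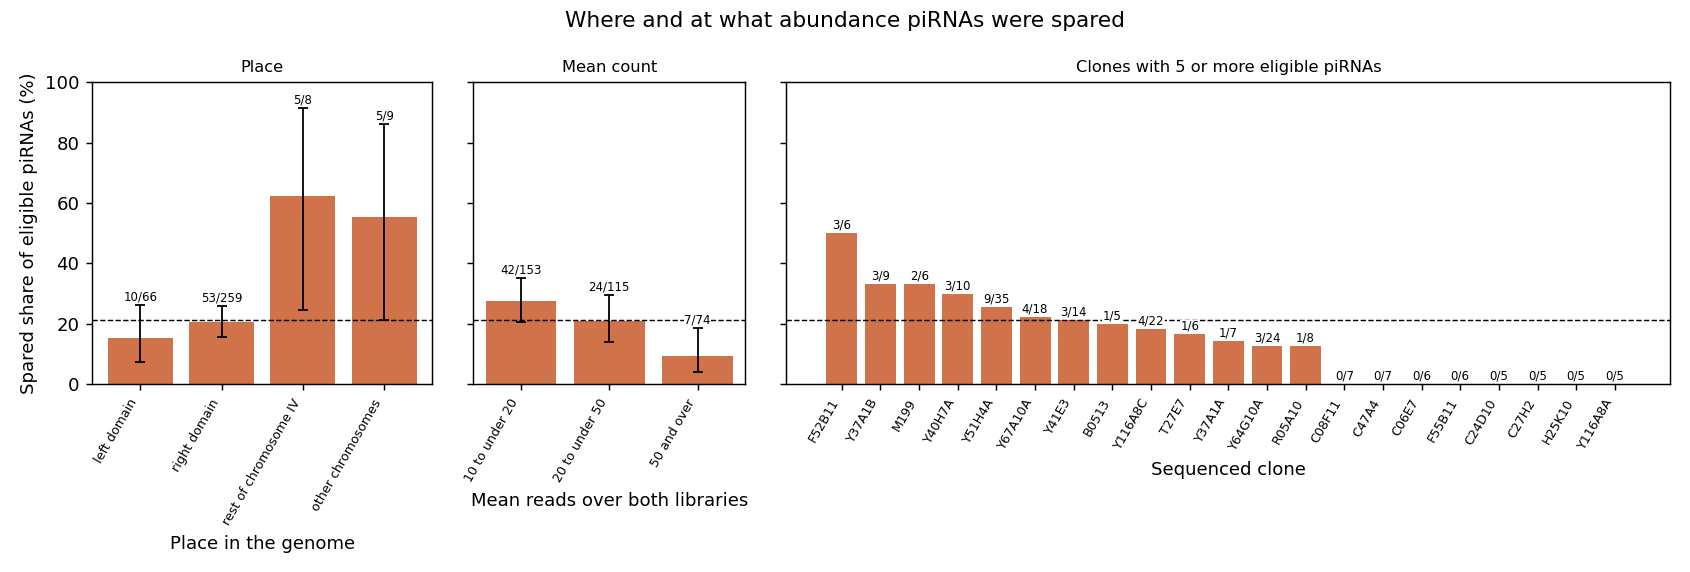
Share of eligible piRNAs that were spared (percent), by place in the genome, by mean count and for each of the 21 clones with 5 or more eligible piRNAs; numbers above the bars are spared over eligible loci, error bars in the left and middle panels are exact 95% intervals, and the dashed line is the 21.3% over all. The bars outside the domains (5 of 8 and 5 of 9) stand above the line with wide intervals, and among clones the bars run from 0 to 3 of 6.

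Most eligible loci outside the domains, spared or not, had no piRNA gene beside them. For 8 of the 10 spared loci neither neighbouring gene in the annotation was a piRNA gene, while this held for 1 of the 63 spared loci inside the domains, 4 of the 262 other eligible loci inside and 4 of the 7 other eligible loci outside. The most abundant, 21ur-13441 on chromosome V, with 50 and 71 counts and a ratio of 1.39 (0.954 to 2.04), lies within the span of nhr-205, a nuclear hormone receptor gene. 21ur-15181 (F58G6.10) on chromosome IV, with 17 and 25 counts and a ratio of 1.44 (0.746 to 2.84), lies within acc-1, which encodes an acetylcholine-gated chloride channel. Both were higher in the snpc-4 library, by less than the counting interval spans. 21ur-10052 (C05C12.8) had 17 and 21 counts, and 21ur-7439 (C25G4.12) had 11 and 17; neither lies within another annotated gene. On chromosome V, 21ur-15093 neighbours cfz-2, a Frizzled receptor gene, and 21ur-14353 (13 and 11 counts) lies within the gene F40F9.3. On chromosome X, 21ur-13424 (14 and 12 counts) neighbours sem-5, the worm's GRB2-like adaptor gene, and 21ur-13239 (10 and 10) neighbours frpr-1, a neuropeptide receptor gene. The remaining pair, 21ur-13215 with 19 and 16 counts and 21ur-11056 with 14 and 13, lies within the pseudogene Y59H11AR.6 and the noncoding gene K07F5.20.

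The other 7 eligible loci outside the domains had ratios between 0.221 and 0.777. 5 of them were at or above 0.602, and the pair below was 21ur-12047 on chromosome I, with 31 and 7 counts, and 21ur-8602 on chromosome II, with 16 and 5. These 7 are named or counted here after their values were seen. Over all of them, 152 and 89 counts were summed.

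Within the left domain more of the spared loci lay in the last part of the order, by numbers too small to separate. Split by order into 3 equal groups of 22 eligible loci, a split chosen after the order had been plotted, the domain held 1, 3 and 6 spared loci. The other eligible loci of the same groups had summed ratios of 0.331, 0.244 and 0.270, which do not rise in that order. The medians over all eligible loci of these groups, spared ones included, were 0.395, 0.238 and 0.531, highest in the last. Of the 1340 control counts behind the last sum, 21ur-2935 gave 606 and 21ur-3078 gave 264. The 6 spared loci in the last group were 21ur-15611, 21ur-7477 (28 and 31 counts), 21ur-9993 (13 and 11), 21ur-15244 (29 and 42), 21ur-6394 (15 and 16) and 21ur-9844 (12 and 18). The intervals of the 3 shares overlap, from 4.55% (0.115% to 22.8%) to 27.3% (10.7% to 50.2%). In the right domain the same split gave 16 of 87, 15 of 86 and 22 of 86. There the summed ratios of the other eligible loci did rise in that order. They were 0.381 (0.359 to 0.404), 0.405 (0.385 to 0.426) and 0.468 (0.445 to 0.491). The medians over all eligible loci of the right domain groups were 0.440, 0.421 and 0.520.

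**Figure D4:**
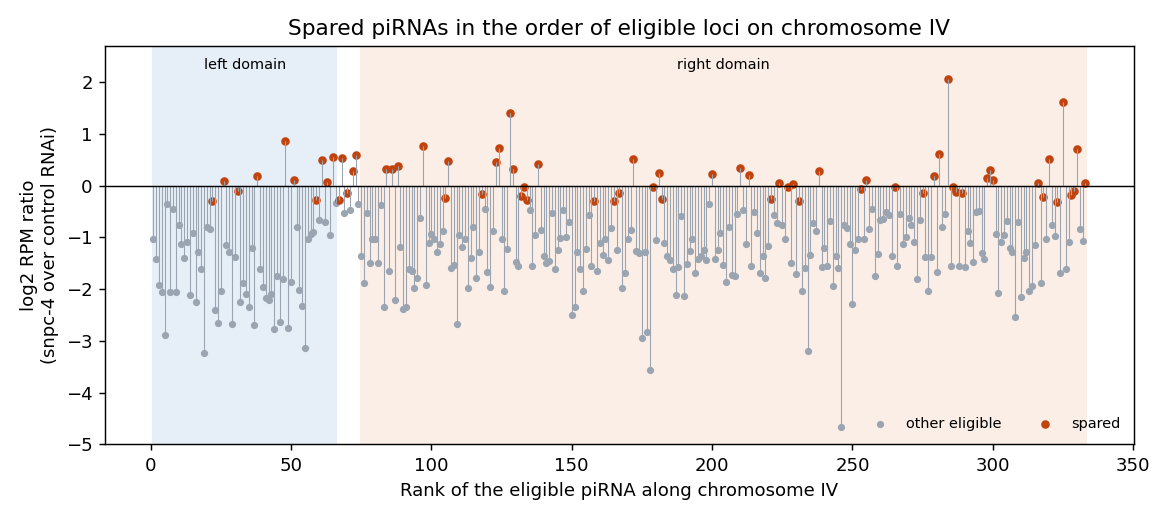
log2 RPM ratio of the 333 eligible piRNAs on chromosome IV in their order along it (horizontal, rank), spared loci in orange and the other eligible loci in grey, with the left and right domains shaded. Spared loci are spread among lowered ones over both domains, mostly as single points, with runs of at most 3.

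Clones, the sequenced genome fragments that give worm genes their systematic names, likewise held spared and lowered loci side by side. The 73 spared loci came from 42 of the 97 clones with an eligible piRNA, 28 of these clones giving 1 spared locus each and 14 giving 2 or more. Clone Y51H4A gave the most, 9 of its 35 eligible loci (25.7%), led by 21ur-6291 (29 and 32 counts) and 21ur-14651 (24 and 28). Its other 26 loci had a summed ratio of 0.516 (0.478 to 0.557). Y67A10A gave 4 of 18, with 21ur-12276 and 21ur-952 (21 and 18 counts) in front, beside a summed ratio of 0.374 (0.334 to 0.419) for the rest of the clone. Y116A8C gave 4 of 22, led by 21ur-2965 and 21ur-5474 (19 and 20 counts), and its remaining loci had a summed ratio of 0.387 (0.352 to 0.426). Y41E3 gave 3 of 14, led by 21ur-2004 and 21ur-4656 (33 and 39 counts), beside 0.443 (0.377 to 0.519). In each of these 4 clones most well-counted piRNAs were lower, so spared and lowered loci lay on the same fragment.

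Among the 21 clones with at least 5 eligible loci, F52B11 had the highest share, 3 of 6, and 8 clones had none. Clones C08F11 and C47A4, each with 0 of 7, had the most eligible loci among those 8, and their summed ratios were 0.415 (0.331 to 0.518) and 0.298 (0.239 to 0.370). These were named after their values were seen. Every eligible locus was spared in 15 clones, but 14 of them have a single one. The exception is T06A10, whose 3 eligible loci were all spared: 21ur-5009 had 24 and 27 counts, 21ur-4130 had 21 and 23, and 21ur-3437 had 15 and 19. Their ratios were 1.10 (0.611 to 1.99), 1.07 (0.567 to 2.03) and 1.24 (0.596 to 2.62).

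Whether spared loci are neighbours was read from the order of the 342 eligible loci along each chromosome. Of the 73 spared loci, 28 had at least 1 spared locus next door, a share of 38.4% (27.2% to 50.5%). Of the 269 other eligible loci, 92 did, or 34.2% (28.5% to 40.2%). Among all 337 next-door pairs, 16 were both spared, 111 were mixed and 210 held no spared locus. When neighbours also had to lie on the same clone, the shares were 20.5% (12% to 31.6%) for the spared and 24.5% (19.5% to 30.1%) for the others, the opposite order. The order was also opposite, 22.8% against 29.8%, when the libraries were scaled to the listed counts. The same held for scaling to the microRNA counts (21.6% against 26.8%) and a limit of 1 (21.4% against 22.0%). It was kept with a limit of 0.7 (48.3% against 39.1%), with no locus left out (38.9% against 30.5%) and under every other alternative. The intervals overlap in the first pair of shares and in the same-clone pair, so no difference in the next-door share was detectable with these numbers. That share looks only 1 locus to each side, so it misses spared loci that alternate with others. From 21ur-9993 in the left domain to 21ur-7439 beyond it, places 61 to 75 of the order, spared loci mostly alternated with others. The others there had ratios from 0.517 (21ur-6689) to 0.795 (21ur-6755). This stretch was picked after its values were seen and was not tested.

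Most spared loci stood alone: 45 were flanked by no spared locus, 16 formed 8 pairs and 12 formed 4 runs of 3. The run with most reads was 21ur-1051, 21ur-7267 (20 and 20 counts) and 21ur-1492, on the clones F52B11 and H12I19, with 258 and 229 counts in all. The second, on chromosome V, holds 21ur-15093, 21ur-14353 and 21ur-13441 from 3 different clones, in an order with few eligible loci. The third is the T06A10 group. The fourth is 21ur-57 (29 and 26 counts), 21ur-2335 (20 and 19) and 21ur-6615 (9 and 15) on the clones Y116A8B and ZK550, near the end of the order on chromosome IV.

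The reads of the loci next door, which did not enter a spared locus's own choice, were close to those next to any other locus. The 120 eligible loci beside a spared one had a summed ratio of 0.494 (0.475 to 0.514) and a median of 0.531, and the 313 beside a locus that was not spared had 0.465 (0.453 to 0.476) and a median of 0.463. Many loci belong to both sets, so these values are not independent. Among all listed piRNAs, 140 loci under the minimum directly flank a spared locus. At most 50 of these 140 loci had any read. Their reads came to 181 in the control and 118 in the snpc-4 library, or a ratio of 0.638 (0.501 to 0.808). The 500 such loci that flank the other eligible piRNAs, at most 161 of them with any read, gave 465 and 295 reads. That is a ratio of 0.620 (0.534 to 0.719). As a sum, the poorly counted neighbours of spared loci were thus lower in the snpc-4 library too, by about as much as those beside other loci.

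Lying within another gene was about as frequent in both sets. Of the spared, 28 of 73 lay within the span of a protein-coding gene, or 38.4% (27.2% to 50.5%), against 112 of 269, or 41.6% (35.7% to 47.8%), of the others and 37.7% of all listed piRNAs.

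The loci that were left out held further piRNAs past the same limit, 35 of 218 or 16.1%. Of the 4 single loci left out, 21ur-9757 (F31A9.7) had 224 and 353 counts, a ratio of 1.54 (1.30 to 1.83). 21ur-13507 (Y22D7AR.15) had 94 and 101, and 21ur-11668 (F33D4.9) had 66 and 54. The remaining single locus is not among the 35. Among the most abundant piRNAs 21ur-5815 (T23G4.79) had 3046 and 2740 counts. It shares its clone with 21ur-11433 (35 and 45 counts) and 21ur-2589 (14 and 18), which are spared, and with other eligible loci that summed to 261 and 77 counts.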

How the data were processed

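Small RNA was sequenced with 1 library per group; the other 12 of the 14 samples, from chromatin immunoprecipitation and inputs, were not used here. Per the labels' protocols the Illumina small RNA v1.5 kit was used, and the labels differ on whether feeding began at the first or second larval stage. BWA is named in the submitters' processing notes, without a version. Neither a genome build nor a counting tool is stated there. Per the file headers, the authors deposited a read count and an RPM value per transcript; RPM is the count divided by 1 constant per library, larger than the sum of listed counts (956653 and 1074622).

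The ratio is deposited RPM in the snpc-4 library over that in the control library, with no read added. Ratio intervals are exact conditional binomial and share intervals exact Clopper-Pearson, at 95%. Names, gene order and domain membership were read from RefSeq's gene table (assembly WBcel235), which matched 15363 of 15366 piRNAs, each 21 bases long. The build of the counts is unknown, so the order gives neighbours and no coordinates are printed. The members, lists and borders were chosen with earlier results of these data known. Named piRNAs follow a rule by abundance, ratio, nearness to the limit, runs, leading clones, intervals above 1 and chromosomes other than IV; others are said to be named after their values were seen, or complete a group or a comparison. The share outside the domains was added after the values were known. Sequences and the upstream motif were not analysed here. Alternatives changed scaling, minimum, limit, an added read, the loci left out and the definition of neighbours. Steps were tested on simulated data. The work used SciPy 1.17.1 for intervals, pandas 2.3.3 and NumPy 2.4.6 for tables and matplotlib 3.10.9 for plots, under Python 3.11.15.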

Additional observations from a re-analysis of the deposited data

How the results depend on the processing

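Against 73 spared piRNAs, a minimum mean of 5, 20 or 50 counts gave 152, 31 or 7, and a limit of 1 gave 42. Scaling to the listed counts or to the microRNA counts, which shifts every log2 ratio by -0.14 or -0.20, gave 57 or 51, all among the 73. The summed ratio moved to 1.01 with a limit of 0.7 and to 1.26 with a limit of 1, as the limit sets it. With no locus left out it was 0.981 (0.95 to 1.01) for 108 piRNAs, below 1; that set holds 21ur-5815, with 3046 and 2740 counts. The share of spared loci with a spared neighbour was 22.8% and 21.6% under those 2 scalings, against 29.8% and 26.8% for the other eligible loci. It was 57.1% of 7 loci with a minimum of 50 counts, 21.4% with a limit of 1 and 20.5% on the same clone, against 11.9%, 22.0% and 24.5% for the others. The spared share outside the domains was 100% of 1 locus with a minimum of 50 counts and 29.4% with a limit of 1, against 8.22% and 11.4% inside, and 41.2% and 35.3% under the 2 scalings, against 15.4% and 13.8%; these alternatives were chosen after seeing the data. Of 41 alternative values, 27 stayed within the interval or within 1.5 times the count. No motif value was computed. No paired analysis was possible because each group has 1 library, and for the same reason no replicate could be left out. At these depths a member with a mean under 20 counts has an interval whose bounds differ by a median of 5.49 times.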

Other observations

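Listed piRNA loci that overlap another listed piRNA seldom had reads. Of 6557 such loci, 258 had a read in either library, or 3.93% (3.48% to 4.43%), against 3674 of 8806 that overlap none, or 41.7% (40.7% to 42.8%). Overlapping loci are 42.7% of those listed but 16 of the 342 eligible piRNAs and 1 of the 73 spared, 21ur-2589 (T23G4.17). The spared set therefore describes almost only loci that overlap no other piRNA, and no source used here states how overlapping loci were counted.

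Serial numbers in piRNA names were compared between the sets. Inside the domains, 8 of 63 spared piRNAs had a number above 10000, or 12.7% (5.65% to 23.5%). Among the other eligible piRNAs there it was 9 of 262, or 3.44% (1.58% to 6.42%). The intervals overlap, which does not show that the shares are alike, and their difference was not tested. Among all listed piRNAs inside the domains the share was 32.7%. Outside them it was 9 of 10 spared and 3 of 7 other eligible piRNAs, beside 91.8% of all 962 listed there, so the spared share is near that background. Pooled over both places it was 17 of 73 spared, or 23.3% (14.2% to 34.6%), and 12 of 269 other eligible piRNAs, or 4.46% (2.33% to 7.66%). These pooled shares mix places with unlike backgrounds. Members with such a number include 21ur-15698, 21ur-12276 and 21ur-13641 inside the domains and 21ur-13441 outside them. No source used here states what the numbers stand for, and the limit of 10000 was chosen after seeing the names.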
